A study of Mus musculus with 7 samples.

Results

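The Cxcl9-expressing macrophages were 314 host cells of 7 mouse tumors, selected on their own Cxcl9 counts, since each held at least 3 unique molecular identifiers (UMIs) of that chemokine transcript together with at least 2 UMIs of the macrophage genes Csf1r and Adgre1. Cells entered the choice with at least 500 detected genes and at most 10% of UMIs from mitochondrial genes. Cells with 2 or more UMIs of the monocyte gene Ly6c2, with any UMI of Atp6v0d2, Flt3, Mki67, Top2a, Cd3e, Cd3d or Cd3g, or with more than 1 UMI of the tumor genes Tafa1, Unc5c and Col11a1 were left out. The deposited libraries held 39537 cells, of which 33136 passed the cell filter and 7617 passed the macrophage gate. The 314 cells were thus 4.12% of the gated macrophages and 0.948% of the filtered cells. They are compared with the 7091 macrophages of the same gate in which no Cxcl9 UMI was found, called Cxcl9-negative here. A further 212 gated macrophages held 1 or 2 Cxcl9 UMIs and entered neither class.

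The tumors were subcutaneous allografts of JW23.3, a mouse malignant peripheral nerve sheath tumor (MPNST) line with mutant Nf1 and Trp53, grown in the flanks of immunocompetent wild-type female C57/B6 mice that were 5 to 6 weeks old. Cells were implanted on day 0 and the mice were randomized on day 7. The irradiated group of 4 tumors was given 2 Gy to the tumor on each of 5 days, and the 3 control tumors received no irradiation. All tumors were taken on day 21, dissociated with papain and profiled with a 3′ droplet assay, 1 library per tumor. A single cell line and a single harvest day limit what the groups can stand for.

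CXCL9 is a chemokine that macrophages and other cells secrete under interferon-gamma, the cytokine of activated T and NK cells. Interferon-gamma acts through the kinases JAK1 and JAK2 and raises IRF1, a factor that binds the interferon-stimulated response element (ISRE), and many of its target genes carry the gamma-activated sequence (GAS). With its relatives CXCL10 and CXCL11, CXCL9 binds the receptor CXCR3 and attracts activated T and NK cells. CXCL10 and CXCL11 also respond to type I interferons, whereas CXCL9 is known to depend more on interferon-gamma. In tumors, macrophages are among the main known sources of CXCL9.

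The promoters of Cxcl9 and of 4 genes among those that differed most between the classes are shown with the letters of these elements, where present. Sequences are RefSeq promoters of GRCm38.p6, from 250 bases before to 50 bases after the annotated start, 5′ to 3′ on the strand of the gene, with matches to GAS (TTCNNNGAA) or ISRE (GAAA, any 2 bases, then GAAA), searched on both strands, in capitals. The window of Cxcl9 is chr5:92328030-92328329 (minus strand), of Cxcl10 chr5:92348840-92349139 (minus strand), of Gbp2 chr3:142620413-142620712 (plus strand), of Gbp5 chr3:142496684-142496983 (plus strand) and of Serpina3g chr12:104235897-104236196 (plus strand).
Cxcl9: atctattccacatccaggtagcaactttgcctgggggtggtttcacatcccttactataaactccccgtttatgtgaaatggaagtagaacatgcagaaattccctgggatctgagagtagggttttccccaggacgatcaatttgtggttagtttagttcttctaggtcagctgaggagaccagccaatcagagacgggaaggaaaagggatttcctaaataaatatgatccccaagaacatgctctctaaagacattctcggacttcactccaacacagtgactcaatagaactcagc
Cxcl10: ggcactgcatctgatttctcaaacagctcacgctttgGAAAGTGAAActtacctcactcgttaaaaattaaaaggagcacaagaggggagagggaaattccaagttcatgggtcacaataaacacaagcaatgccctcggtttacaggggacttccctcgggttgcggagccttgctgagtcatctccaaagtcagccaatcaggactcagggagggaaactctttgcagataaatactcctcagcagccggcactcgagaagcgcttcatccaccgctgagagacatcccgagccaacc
Gbp2: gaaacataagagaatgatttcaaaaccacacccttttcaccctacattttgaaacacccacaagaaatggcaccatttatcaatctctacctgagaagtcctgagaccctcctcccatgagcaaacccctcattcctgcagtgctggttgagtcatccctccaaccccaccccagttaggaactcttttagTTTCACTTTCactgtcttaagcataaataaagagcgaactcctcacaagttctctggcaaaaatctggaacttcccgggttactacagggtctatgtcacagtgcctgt
Gbp5: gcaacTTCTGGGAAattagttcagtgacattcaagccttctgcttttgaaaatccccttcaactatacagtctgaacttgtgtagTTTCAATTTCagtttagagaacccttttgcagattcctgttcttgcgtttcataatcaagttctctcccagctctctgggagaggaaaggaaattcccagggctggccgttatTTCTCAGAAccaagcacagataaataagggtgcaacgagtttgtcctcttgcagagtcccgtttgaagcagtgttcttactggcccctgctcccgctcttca
Serpina3g: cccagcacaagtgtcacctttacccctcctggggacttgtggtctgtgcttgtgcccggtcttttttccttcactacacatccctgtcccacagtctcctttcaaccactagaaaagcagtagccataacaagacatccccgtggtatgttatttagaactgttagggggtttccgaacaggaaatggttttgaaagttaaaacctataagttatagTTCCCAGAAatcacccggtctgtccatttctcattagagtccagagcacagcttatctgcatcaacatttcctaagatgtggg

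The Cxcl10 promoter held an ISRE match that began 213 bases before the start, and that of Gbp2 held one 59 bases before it. Gbp5 carried GAS matches 245 and 52 bases and an ISRE match 165 bases before its start, and Serpina3g a GAS match 33 bases before its own. The Cxcl9 window held neither run of letters. Of all 32851 promoters of the same length, 8.30% held GAS, 3.44% held ISRE and 0.454% held both. Of the 13 promoters found for 12 genes of a list of guanylate-binding proteins and immunity-related GTPases, 11 held ISRE (84.6%) and 7 held both (53.8%). ISRE matches stood in 14 of the 26 promoters (53.8%) of the type I interferon list. They stood in 4 of 18 promoters of the MHC class I list, 2 of 15 of the interferon-gamma signaling list, 1 of 7 of the chemokine list, 2 of 18 of the scavenging list and 0 of 7 of the MHC class II list. Of the 7 promoters found for the 10 genes with the largest increase, those of C3 and AW112010 held neither element. A match is a run of letters and not a measured binding site.

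Every tumor held Cxcl9-expressing macrophages. Irradiated tumors 1 to 4 had 47, 19, 46 and 126 of them, and control tumors 1 to 3 had 37, 21 and 18. Among the 314 cells the median was 10 Cxcl9 UMIs, with quartiles of 5 and 22 and a maximum of 292. The 31 cells with the most held 47.9% of the members' Cxcl9 UMIs. By level, 82 cells held 3 to 5 UMIs, 144 held 6 to 19 and 88 held 20 or more. At the edge of the rule, 38 cells had 3 UMIs, 65 gated macrophages had 2 and 147 had 1. The summed Cxcl9 level of the members lay between 1719 and 2324 UMIs per 1000000 (CPM) in all 7 tumors, and their median between 7 and 12 UMIs. These levels are those of cells chosen for at least 3 UMIs, in libraries of unlike depth, and 14.3% to 34.1% of the members of a tumor held 20 or more.

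**Figure D1:**
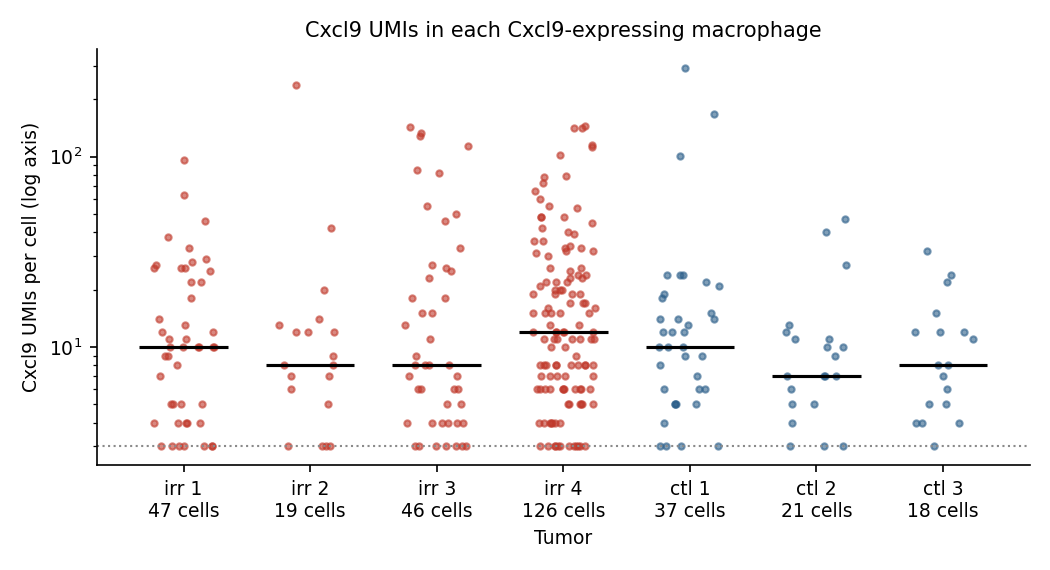
Cxcl9 UMIs of each of the 314 Cxcl9-expressing macrophages (points, log axis) by tumor, red irradiated and blue control, with the median of each tumor as a black line and the minimum of 3 UMIs as a dotted line. Medians lie between 7 and 12 UMIs in every tumor, while the number of cells runs from 18 in control 3 to 126 in irradiated 4.

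The Cxcl9-expressing macrophages carried 46.0% of all Cxcl9 UMIs in the filtered cells, from 28.6% in irradiated 2 to 60.2% in irradiated 3. Cells in none of the classes defined here carried 26.1%, from 22.9% to 34.1% by tumor. Other Csf1r or Adgre1 cells with Flt3, Atp6v0d2 or cell cycle transcripts carried 12.8%, and Ly6c2 monocytes 4.61%. Tumor cells carried 8.48%, and 71 of 13577 tumor cells (0.523%) had 3 or more Cxcl9 UMIs at a median depth of 23891 UMIs. T cells, which are not known as a source of CXCL9, gave the background. A Cxcl9 UMI was found in 4 of 1034 T cells (0.387%) at a median of 3473.5 UMIs, against 526 of the 7617 gated macrophages (6.91%).

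The label was checked against markers that the rule did not use. Of 15 macrophage markers tested, 2 were higher and 1 lower in the members, and C1qa, C1qb, C1qc, Tyrobp, Fcer1g and Ms4a7 were among those that did not pass, with a median over the list of 0.03 on the log2 scale. C1qa, a subunit of complement C1q, stood at 5500 ± 486 CPM (SD over 7 tumors) in Cxcl9-expressing and 5306 ± 376 in Cxcl9-negative macrophages. Fcgr1, the high-affinity IgG receptor, and Aif1 were higher, and Itgam, an integrin subunit, was lower. Itgam lost its call when cells of both classes were limited to the same depth (adjusted p = 0.13). Xist, which marks cells of the female hosts, was found in 96.2% of the members, 91.6% of the Cxcl9-negative macrophages and 5.13% of the tumor cells. The genes that defined the gate were lower or about level, with Csf1r at 504 ± 69.4 and 598 ± 95.3 and Adgre1 at 523 ± 48.1 and 597 ± 51.1 CPM in members and reference.

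Markers of other cells were few in the members. Of 16 T and NK genes, Cd8b1, Ifng and Prf1 were at 0 and all 16 together gave 66 UMIs over the 314 cells, 23 of them from Cd4. Their summed level was 7.41 to 48.3 CPM in irradiated and 12.9 to 133 in control members, against 5.61 to 11.8 in the reference, and over all 7 tumors the calls between the classes numbered 551, and 531 when cells with UMIs of Trac, Trbc1, Trbc2, Cd2, Nkg7, Gzmb or Ifng were left out of both. The 12 tumor genes gave 320 UMIs, at 25.3 to 984 CPM in members, highest in control 3, and 22.8 to 141 in the reference. The 7 endothelial genes gave 69 UMIs, at 15.4 to 79.0 CPM in irradiated and 0 to 11.1 in control members, and 8.09 to 30.0 in the reference. Of 9 dendritic cell genes, Batf3 was higher in the members (log2 fold change 0.91 ± 0.27 SE, adjusted p = 0.029), while Clec9a and Xcr1, which define the cross-presenting subset, gave 16 and 2 UMIs, and Zbtb46 gave 4. The Batf3 call was lost at limited depth (0.50, adjusted p = 0.80) and with DESeq2 (adjusted p = 0.063). The summed level of the 9 genes was 25.8 to 104 CPM in members and 10.98 to 35.5 in the reference, higher in the members of 7 of 7 tumors. Scrublet called 1 of the 314 cells a doublet, among 765 calls in all (1.93% of cells). Of 39347 distinct barcodes, 190 occurred in more than 1 library, and 5 members had such a barcode. Cxcl9-expressing macrophages were deeper than the others in 6 of 7 tumors, with medians of 4834 to 13361 UMIs against 4359 to 11513.5. Irradiated 2 was the exception, with 10883 against 11509 UMIs.

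To ask which other genes mark these cells, UMIs were summed per tumor over the members and over the Cxcl9-negative macrophages and compared within tumors with edgeR's quasi-likelihood test. The 5 tumors with at least 20 cells in both classes entered, 3 irradiated and 2 control. Of 10353 genes tested, 457 passed an adjusted p of 0.05 (4.41%), 321 higher in the Cxcl9-expressing macrophages (3.1%) and 136 lower (1.31%), with a median over all genes of -0.02 on the log2 scale. The count was 213 of 8789, with 163 higher (1.85%) and 50 lower (0.569%), when cells of both classes were limited to the same depth, 551 of 10309 (5.34%) over all 7 tumors, with 363 higher (3.52%) and 188 lower (1.82%), and 109 when the tumor was not a block. The signs were shared by 441 of the 442 called genes that could be tested at limited depth. Limited depth kept the cells of both classes that lay between the lower and upper quartile of the members' UMIs in each tumor. It left 23, 22 and 62 members in irradiated 1, 3 and 4 and 19 and 11 in control 1 and 2. Fewer cells thus entered as well, and the parts of depth and of cell number in the lost calls were not tested. The members were chosen for Cxcl9 itself, so its values carry no test.

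Of the other CXCR3 ligands, Cxcl10 passed the test, and Cxcl11 did not over 5 tumors. Cxcl10 stood at 856, 1136, 1192 and 1139 CPM in members of irradiated tumors 1 to 4 and at 749, 1609 and 930 in those of control tumors 1 to 3, against 124 to 379 in the Cxcl9-negative macrophages. No member value overlapped a reference value, and Cxcl10 was higher by 2.40 ± 0.34 (log2 fold change ± SE, adjusted p = 0.036). Such a gap between the 7 member values and the 7 reference values was found for 119 of the genes tested (1.15%). Cxcl11 had 34.1, 266, 174 and 151 CPM in irradiated and 60.9, 216 and 26.6 in control members, each above its own tumor's reference of 1.39 to 38.5. Its log2 fold change was 3.40 ± 0.76, with an adjusted p of 0.14 over 5 tumors and 0.017 over all 7. Within the members 135 of 314 cells (43.0%) held a Cxcl10 UMI, 53 held both Cxcl10 and Cxcl11, and 162 (51.6%) held neither. The same share was 16.0% for Cxcl10 in the Cxcl9-negative macrophages and 11.7% in T cells. The members were deeper than both. In cells with at least 4000 UMIs, thinned to that depth, the shares were 34.4% in members, 13.7% in Cxcl9-negative macrophages and 11.1% in T cells.

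Ccl5, which attracts T cells, was the chemokine with the largest increase. It stood at 660, 591, 827 and 715 CPM in irradiated and 537, 2230 and 1161 in control members, against 44.4 to 135 in the reference, without overlap. Its log2 fold change was 3.41 ± 0.45 (adjusted p = 0.030). T cells held this transcript about as often as the members. In cells thinned to 4000 UMIs, a Ccl5 UMI was found in 46.4% of members, 8.49% of Cxcl9-negative macrophages and 51.4% of T cells. How much of the members' Ccl5 came from T cells was not tested. Ccl4, a chemokine of activated macrophages, was also higher, by 0.73 ± 0.12 (adjusted p = 0.0013). Ccl8, Ccl3, Cxcl12, Cxcl16 and the receptor Cxcr3 did not pass, so 3 of the 9 tested genes of this list were called, all higher, with a list median of 0.73. At limited depth 1 of 7 was called, Cxcl10, and Ccl5 had an adjusted p of 0.071.

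The genes of interferon-gamma signaling were called in part. Of 14 tested, 7 were higher and none lower, with a median of 0.55, and at limited depth 3 of 14 were called. Irf1 (adjusted p = 0.11) and Batf2 (adjusted p = 0.13) lost their calls there. Irf1 stood at 55.4 to 117 CPM in members and 37.6 to 74.6 in the reference, higher in 7 of 7 tumors as were 325 of the genes tested (3.14%), with a log2 fold change of 0.93 ± 0.15 (adjusted p = 9.8e-06). Socs1, the feedback inhibitor of JAK kinases, was higher by 2.10 ± 0.30, Batf2 by 1.33 ± 0.34, Stat2 by 0.62 ± 0.14, Jak2 by 0.58 ± 0.13 and Irf8 by 0.52 ± 0.10. The receptor chains did not pass, with -0.20 ± 0.10 for Ifngr1 and 0.21 ± 0.10 for Ifngr2, nor did Jak1 at 0.10 ± 0.11 or Stat3 at -0.18 ± 0.10. Irf7 (0.96 ± 0.30), Irf9 (0.15 ± 0.19) and Socs3 (-0.02 ± 0.10) did not pass either.

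The guanylate-binding proteins and immunity-related GTPases, which attack pathogen-containing vacuoles, formed the list with the largest median, 1.47 over 14 tested genes. Of these 12 were higher and none lower, and 10 of 13 were called at limited depth. Gbp2 had 270, 237, 273 and 314 CPM in irradiated and 282, 254 and 284 in control members, while the reference ran from 14.2 to 67.4. The members of both groups lay within a narrow range, far above every reference value, and the log2 fold change was 2.97 ± 0.24 (adjusted p = 0.00059). At limited depth the fold change of Gbp2 was 3.08 and did not pass (adjusted p = 0.056). Gbp4 was higher by 3.32 ± 0.36, Gbp5 by 2.69 ± 0.20, Gbp6 by 2.27 ± 0.25 and Tgtp2 by 2.03 ± 0.45. Iigp1 had a log2 fold change of 2.17 ± 0.50 and did not pass (adjusted p = 0.15; 0.044 over 7 tumors), and Irgm2 had 0.58 ± 0.32. The ISRE and GAS letters shown for Gbp2 and Gbp5 belong to this group.

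**Figure D2:**
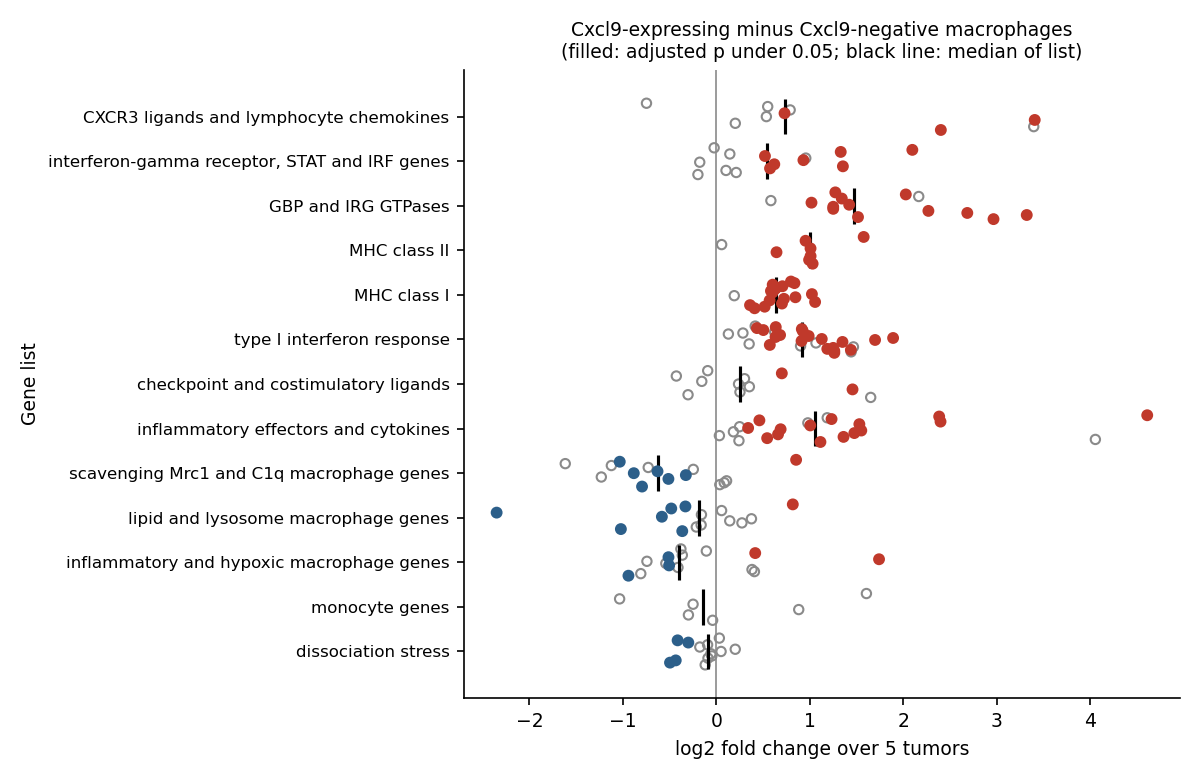
Log2 fold change of each tested gene between Cxcl9-expressing and Cxcl9-negative macrophages, by gene list. Filled points passed an adjusted p of 0.05 (red higher, blue lower), open points did not, and the black line is the list's median. The GTPase list has a median of 1.47 and the scavenging list -0.63.

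Antigen presentation was higher on both arms. Of 8 tested MHC class II genes 7 were higher, with a median of 1.00. H2-Aa ran from 402 to 4850 CPM in members and from 293 to 2211 in the reference, and both were lowest in control 1 and highest in irradiated 1. Within every tumor the members lay above, and the log2 fold change was 1.03 ± 0.11 (adjusted p = 5.5e-06). Ciita, the transactivator of the class II genes, was higher by 1.58 ± 0.32, and H2-Eb1, H2-DMb1 and H2-Ab1 by 1.01 ± 0.09, 1.01 ± 0.11 and 0.99 ± 0.10. At limited depth 2 of 8 class II genes were called. H2-Aa (adjusted p = 0.58), Ciita (0.54), H2-Eb1 (0.64) and H2-Ab1 (0.37) lost their calls there. The dendritic cell markers given above were higher in the members of the same 7 tumors, and their part in the class II values was not tested. Of 18 class I genes 17 were higher, with a median of 0.63, and 14 were called at limited depth. They included Tap1 (1.02 ± 0.13) of the peptide transporter, Psme2 (0.84 ± 0.10) of the proteasome activator, and Nlrc5 (0.80 ± 0.18), the class I transactivator. H2-M3 was the exception, at 0.19 ± 0.14.

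Type I interferon response genes were higher for 19 of 28 tested, none were lower, and the median was 0.92. Rsad2, which makes the antiviral nucleotide ddhCTP, ran from 273 to 696 CPM in members and from 76.9 to 246 in the reference, with a log2 fold change of 1.70 ± 0.19 (adjusted p = 0.0018). Cmpk2 was higher by 1.89 ± 0.35, Ifit2 by 1.44 ± 0.16, Oasl1 by 1.35 ± 0.11 and Isg15 by 1.26 ± 0.16. Mx1 (1.47 ± 0.41, adjusted p = 0.23) and Isg20 (1.44 ± 0.36, adjusted p = 0.061) did not pass. Many of these genes respond to interferon-gamma as well, so the list does not tell the interferons apart. At limited depth 10 of 28 were called, with a list median of 1.04. Rsad2 (adjusted p = 0.62), Cmpk2 (0.35) and Ifit2 (0.36) lost their calls there, with log2 fold changes of 1.74, 2.42 and 1.78. Rsad2 also did not pass with a minimum of 5 Cxcl9 UMIs (adjusted p = 0.15).

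Among inflammatory effectors 15 of 22 tested genes were higher and none lower, with a median of 1.06. Serpina3g, an interferon-induced protease inhibitor, had 65.4, 45.8, 73.9 and 87.6 CPM in irradiated and 40.6, 47.0 and 70.9 in control members, against 1.04 to 5.28 in the reference. It had the largest fold change of the called genes, 4.61 ± 0.26 on the log2 scale (adjusted p = 6.8e-23). Slamf8, a SLAM family receptor of myeloid cells, was higher by 2.40 ± 0.28, complement C3 by 2.38 ± 0.15 and Il18bp, the soluble decoy of interleukin-18, by 1.55 ± 0.16. AW112010, an interferon-induced transcript outside the list, was higher by 2.47 ± 0.31 and lost its call at limited depth (adjusted p = 0.094). Acod1, which makes itaconate, ran from 27.3 to 108 CPM in members and from 0.462 to 15.4 in the reference, and its log2 fold change of 4.06 ± 0.73 did not pass over 5 tumors (adjusted p = 0.075; 0.0018 over 7).

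Cytokines that shape T and NK cells were called one by one. Il27, an interleukin-27 subunit, was higher by 1.36 ± 0.34, Il15ra by 1.48 ± 0.39, Il15 by 0.66 ± 0.14, Tnfsf10, which encodes TRAIL, by 1.53 ± 0.39 and Tnf by 0.69 ± 0.14, though Tnf did not pass over all 7 tumors (adjusted p = 0.21). Il27 lost its call at limited depth (adjusted p = 0.098). Il10 (0.25 ± 0.33) and Il18 (0.18 ± 0.18) did not pass. Il12b, a subunit of interleukin-12 and interleukin-23, gave 16 UMIs in 3 members, 12 of them in control 2. Nos2, the inducible nitric oxide synthase of mouse macrophages, gave 21 UMIs in 6 members, 14 of them in control 1. Both genes were too sparse to test.

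Of 11 tested checkpoint and costimulatory genes, Cd40 (1.46 ± 0.14) and Icam1 (0.70 ± 0.15) were higher and none lower. Cd274, which encodes PD-L1, had 239, 166, 194 and 275 CPM in irradiated and 164, 367 and 222 in control members, against 38.1 to 119 in the reference. The member values lay above every reference value, while the test over 5 tumors gave 1.65 ± 0.29 with an adjusted p of 0.060 (0.013 over 7 tumors). Cd86 at 0.25 ± 0.09, Cd80 at -0.30 ± 0.20, Havcr2 at 0.30 ± 0.11 and Tnfsf9 at -0.43 ± 0.17 did not pass. Ido1 gave 1 UMI in all members.

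**Figure D3:**
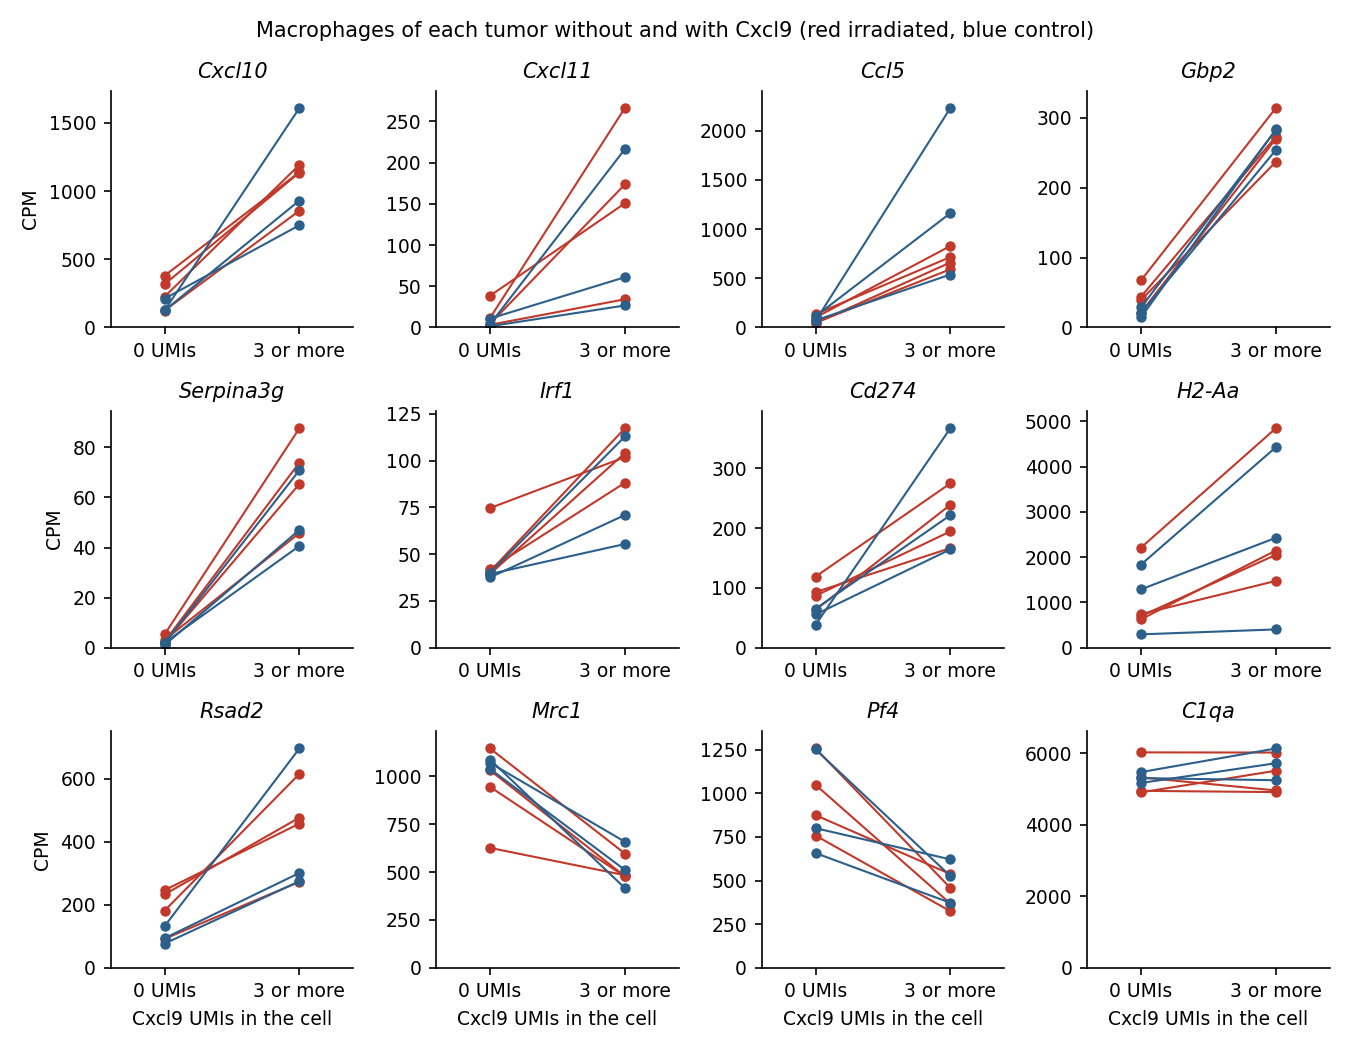
CPM of 12 genes in the Cxcl9-negative (0 UMIs) and Cxcl9-expressing (3 or more UMIs) macrophages of each tumor, joined by a line, red irradiated and blue control. Members lie above the reference in 7 of 7 tumors for Cxcl10, Cxcl11, Ccl5, Gbp2, Serpina3g, Irf1, Cd274, H2-Aa and Rsad2 and below it for Mrc1 and Pf4, while C1qa averages 5500 and 5306.

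Scavenging macrophage genes were lower in part. Of 15 tested, Mrc1, Pf4, Stab1, Maf, Folr2 and Selenop were lower and Axl was higher, with a median of -0.63. Mrc1, the mannose receptor CD206, stood at 597, 478, 477 and 484 CPM in irradiated and 511, 659 and 416 in control members, against 626 to 1146 in the reference. It was lower in 7 of 7 tumors, as were 460 of the genes tested (4.44%), with a log2 fold change of -0.79 ± 0.09 (adjusted p = 3.9e-09). It was not lost, since 252 of 314 members (80.3%) held an Mrc1 UMI, against 88.3% of the Cxcl9-negative macrophages and 2.13% of T cells, and 149 members held UMIs of both Mrc1 and Cd274. The members were deeper, and in cells thinned to 4000 UMIs the Mrc1 shares were 67.0% in members and 83.8% in Cxcl9-negative macrophages. The chemokine Pf4 had a log2 fold change of -1.03 ± 0.12, the scavenger receptor Stab1 -0.88 ± 0.11, the transcription factor Maf -0.63 ± 0.10 and the folate receptor Folr2 -0.51 ± 0.12. Axl, a receptor for dying cells that interferon also induces, was higher by 0.85 ± 0.10. F13a1 had -1.62 ± 0.34 and did not pass over 5 tumors (adjusted p = 0.11; 0.038 over 7). The C1q genes lay between 0.04 and 0.11 and did not pass.

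Lipid and lysosome genes were lower for 6 of 14 tested and higher for 1, with a median of -0.19. Spp1, which encodes osteopontin, ran from 121 to 975 CPM in members and from 339 to 2325 in the reference, lower in 7 of 7 tumors by a log2 fold change of -1.02 ± 0.14 (adjusted p = 0.00070). The lysosomal protease Ctsd had -0.58 ± 0.11, Plin2 of lipid droplets -0.48 ± 0.10, Trem2 -0.36 ± 0.09, the cholesterol transporter Abca1 -0.33 ± 0.09 and the fatty acid receptor Cd36, with 8 UMIs in the members, -2.35 ± 0.49. Acp5 was higher by 0.82 ± 0.20, with an adjusted p of 0.056 over all 7 tumors and 0.11 with DESeq2. Apoe, at -0.21 ± 0.08, did not pass. At limited depth 1 of 13 genes was called lower, and Spp1 (adjusted p = 0.35), Plin2 (0.079) and Cd36 (0.45) lost their calls. With a minimum of 5 Cxcl9 UMIs Spp1 (adjusted p = 0.11) and Ctsd (0.26) did not pass, at log2 fold changes of -1.02 and -0.57.

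Of 14 inflammatory and hypoxic genes, Arg1, Thbs1 and Hmox1 were lower and Il1a and Slc2a1 higher. Over 7 tumors Slc2a1 did not pass (adjusted p = 0.082), and at limited depth 1 of 13 was called, lower. Arg1, which breaks down arginine, ran from 9.41 to 139 CPM in members and from 34.0 to 205 in the reference, with irradiated 4 highest in both. Its log2 fold change was -0.94 ± 0.18 (adjusted p = 0.00059), and with a minimum of 5 Cxcl9 UMIs -0.97, which did not pass (adjusted p = 0.17). Ass1, which rebuilds arginine, went the other way, at 1.11 ± 0.19. Other genes with the largest decreases were Nxpe5 (-1.16 ± 0.20), the leukotriene C4 synthase Ltc4s (-0.99 ± 0.25), the phosphodiesterase Pde4d (-0.97 ± 0.13), Pmp22 (-0.94 ± 0.18), the adaptor Dok2 (-0.91 ± 0.22) and Emp1 (-0.88 ± 0.16). At limited depth Ltc4s (-0.16, adjusted p = 0.95), Pmp22 (-0.63, adjusted p = 0.78) and Dok2 (-0.53, adjusted p = 0.61) lost their calls. Ltc4s also did not pass with DESeq2 (adjusted p = 0.058). Of 6 monocyte genes none passed, with Ly6a at 1.61 ± 0.31 (adjusted p = 0.098; 0.022 over 7 tumors) and Ccr2 at -0.04 ± 0.12.

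Genes of the stress of dissociation moved beside these. Of 13 tested, Fosb, Jun, Nr4a1 and Atf3 were lower in the members, by log2 fold changes of -0.49 ± 0.10, -0.43 ± 0.09, -0.41 ± 0.11 and -0.30 ± 0.09, and none were higher. Fos (-0.12 ± 0.08) and Junb (-0.09 ± 0.08) did not pass, and at limited depth 0 of 13 were called. Over all 7 tumors 2 of 13 were called, and Jun (adjusted p = 0.54) and Atf3 (adjusted p = 0.26) did not pass. The summed level of the list was 9918 to 11270 CPM in irradiated and 9944 to 16136 in control members, and 9853 to 14051 in the reference. Their part in the results was not tested.

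Some calls were lost without a single tumor, with folds that kept their sign. Of the named genes 55 were called, and leaving out 1 of the 5 tumors lost 4 to 9 of these calls. Ccl5 had an adjusted p of 0.17 without irradiated 1 or irradiated 3, 0.083 without irradiated 4 and 0.11 without control 1, with log2 fold changes of 3.29 to 3.67. Cxcl10 had 0.19 without irradiated 1, 0.21 without irradiated 3 and 0.11 without control 1, and AW112010 0.16, 0.17 and 0.11 without the same tumors and 0.082 without control 2. With all 5 tumors but no filter on low counts, Ccl5 (adjusted p = 0.070), Cxcl10 (0.084) and AW112010 (0.062) did not pass either. Without irradiated 1 the calls of Il1a (0.27) and Nr4a1 (0.11) were also lost, and without irradiated 3 those of Acp5 (0.29), Batf3 (0.13), Itgam (0.15) and Dok2 (0.053). Without irradiated 4 these were Icam1 (0.10), Il1a (0.18) and Il27 (0.061), and without control 1 Atf3 (0.15) and Fcgr1 (0.091). Without control 2 they were Batf2 (0.065), Batf3 (0.16), Cmpk2 (0.15), Ctsd (0.28), H2-Q6 (0.20), Atf3 (0.16), Jun (0.062) and Rsad2 (0.054).

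The same genes were followed along the level of Cxcl9, as means over the 4 tumors with at least 5 cells in every band, irradiated 1, 3 and 4 and control 1. Serpina3g stood at 2.92 CPM in Cxcl9-negative macrophages, 8.86 in cells with 1 or 2 Cxcl9 UMIs, 42.9 with 3 to 5, 43.6 with 6 to 19 and 111.5 with 20 or more. Gbp2 ran 40.3, 81.1, 149, 184 and 523.5 over the same bands. For both genes the cells with 1 or 2 UMIs thus lay between the classes that the rule set apart. Mrc1 ran the other way, at 939, 768, 536, 517 and 486. Isg15 was at 362, 588, 668, 969 and 751, with tumors from 479 to 1299 CPM in the band of 6 to 19 and from 479 to 1028 in the top band. C1qa lay between 5194 and 6124 in all 5. H2-Ab1 stood at 559, 527, 1115, 1237 and 1311, so in the mean of these 4 tumors its cells with 1 or 2 UMIs did not lie between the classes. Over all 7 tumors H2-Ab1 averaged 590 with 0 UMIs, 849 with 1 or 2 and 1212 with 3 to 5, so there they did. The tumors went both ways from 0 to 1 or 2 UMIs, from 1119 to 1417 in irradiated 1 and from 407 to 153 in irradiated 3. The bands use the same cells as the rule and carry no test.

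The comparison by group asked whether irradiated tumors held more of these cells. Their share of the gated macrophages was 3.45%, 3.29%, 6.42% and 16.8% in irradiated tumors 1 to 4 and 4.65%, 1.28% and 1.02% in control tumors 1 to 3, with 95% Wilson intervals of 14.3% to 19.6% for irradiated 4 and 3.39% to 6.34% for control 1. The groups overlapped, since control 1 lay above irradiated 1 and 2, and 2 of 4 irradiated tumors were above all controls. The means were 7.49% ± 6.37 (SD, n = 4) and 2.31% ± 2.03 (SD, n = 3), a difference of 5.17 points (two-sided exact permutation p = 0.229, adjusted p = 0.229 over 3 comparisons, smallest possible p 0.0286). Irradiated 4 decided the size, and the difference was 2.07 points without it. With cells thinned to 4000 UMIs and a minimum of 2 Cxcl9 UMIs it was 4.83 points.

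As a share of all filtered cells the members were 0.745%, 0.823%, 1.51% and 4.29% in irradiated and 0.731%, 0.304% and 0.273% in control tumors. Here 4 of 4 irradiated tumors lay above all controls, irradiated 1 by the narrow gap of 0.745% to 0.731%, and the difference of 1.41 points had an exact permutation p of 0.114 (adjusted p = 0.229), falling to 0.590 points without irradiated 4. The Cxcl9 level over all gated macrophages, which needs no threshold, was 93.0, 64.7, 163 and 347 CPM in irradiated and 101, 34.3 and 21.4 in control tumors. Its difference of 114 (exact permutation p = 0.171, adjusted p = 0.229) was 54.4 without irradiated 4. None of the 3 differences by group passed the permutation test, which had 4 and 3 tumors and a smallest possible p of 0.0286.

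**Figure D4:**
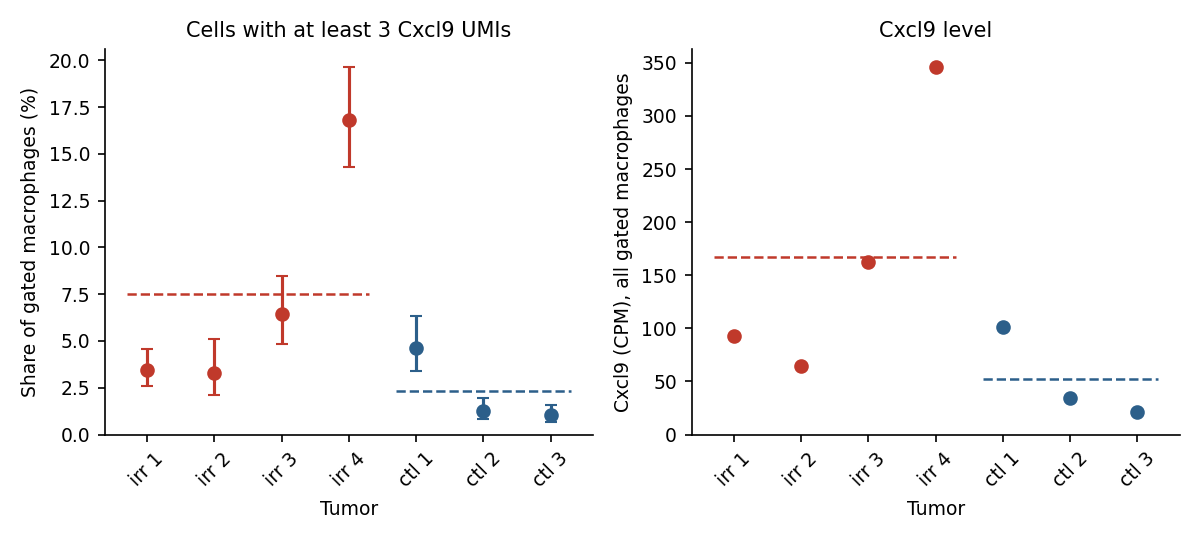
Left, cells with at least 3 Cxcl9 UMIs as a percent of gated macrophages by tumor, with 95% Wilson intervals. Right, Cxcl9 CPM over all gated macrophages, red irradiated and blue control, with group means dashed. Irradiated 4 is highest in both, at 16.8% and 347, and control 1 lies above irradiated 2.

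The libraries fell into sets of unlike depth that crossed the groups. Irradiated 1 with control 2 and 3 had median depths of 4362 to 5895.5 UMIs in gated macrophages, and the other 4 tumors 10239 to 11803. Within the shallow set the share of gated macrophages differed by 2.30 points between groups and within the deep set by 4.19 points, and the Cxcl9 level by 65.2 and 89.9 CPM. Each set held too few tumors for a test. With the set as a term the share differed by 3.30 points (exact permutation p = 0.417 over 12 arrangements).

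T cells, a known source of interferon-gamma and bearers of CXCR3 when activated, made up 3.06%, 3.85%, 5.13% and 6.23% of irradiated and 2.15%, 2.35% and 2.16% of control tumors. Over the 7 tumors the Cxcl9 level in gated macrophages went with that share, at Pearson's r = 0.878 (exact permutation p = 0.00952, adjusted p = 0.0190 over 2 relations), while Spearman's rho was 0.607 (exact permutation p = 0.167, adjusted p = 0.333). The relation rested on irradiated 3 and 4, and r was 0.237 without them. Every irradiated tumor had a larger T cell share than every control, so the relation over 7 tumors includes the difference between groups. The part of the groups in the relation was not tested. The Ifng level within T cells gave r = -0.0174 (exact permutation p = 0.975, adjusted p = 0.975) and rho = -0.286 (exact permutation p = 0.556, adjusted p = 0.556), and r = 0.753 without irradiated 1 and control 3. The sets of unlike depth held 3 and 4 tumors, too few for a correlation of their own.

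Within the Cxcl9-expressing macrophages no gene passed between irradiated and control tumors. Of 5131 genes tested with edgeR, 0 had an adjusted p under 0.05 and 165 an unadjusted p under 0.05 (3.22%), and DESeq2 gave 0 and 75. The values of the groups did not overlap for 314 genes (6.12%). In the Cxcl9-negative macrophages of the same tumors edgeR also called 0, of 11855, with 727 unadjusted (6.13%), but DESeq2 called 32 and edgeR 73 without irradiated 1 and 1 without control 1. The fitted interferon values are therefore given side by side as a description. The members of both groups were chosen for at least 3 UMIs of Cxcl9, itself an interferon-induced gene. That minimum asks for a higher level in shallow libraries. The rule can thus limit how far the members' interferon values differ by group, and its part was not tested. Type I interferon genes were higher in irradiated tumors for 17 of 28 in the members, with a median log2 difference of 0.07, and for 28 of 28 in the reference, with a median of 0.85. Over all genes tested 49.4% were higher in members and 50.5% in the reference. The reference levels also went with the sets of unlike depth. The summed level of the list in the reference was 2703 CPM in irradiated 1 and 2351 and 2371 in control 2 and 3, the shallow set, and 5672, 4078 and 5670 in irradiated 2 to 4 and 3792 in control 1, the deep set. With the set as a term the median was 0.40 in the reference, higher for 27 of 28, and -0.06 in the members, higher for 11 of 28.

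GTPase genes were higher in irradiated tumors for 8 of 12 in members (median 0.20) and 14 of 14 in the reference (median 0.77), and MHC class I genes for 13 of 18 (median 0.10) and 18 of 18 (median 0.52). The summed GTPase level in the reference was 187 to 221 CPM in the shallow set and 299.8 to 511 in the deep set, and that of MHC class I 4457 to 5713 and 6992 to 9586, with control 1 above irradiated 1 in both lists. With the set as a term the reference medians were 0.35 and 0.36 and those of the members 0.20 and 0.08. For MHC class II the medians rose with that term, from 0.20 to 1.16 in members and from 0.10 to 0.77 in the reference. Rsad2 had -0.03 in members and 0.88 in the reference, Gbp2 -0.03 and 0.99, and Irf1 0.50 and 0.31. Cxcl10 had -0.05 and 0.76, Cd274 -0.11 and 0.75, and Ccl5 -0.92 and -0.06. Levels in the reference were highest in irradiated 4 for Cxcl10, Gbp2, Irf1 and Cd274. Mrc1 (-0.09 and -0.20) and C1qa (-0.13 and -0.02) lay near 0 in both classes. The difference between the classes in each gene was tested as a term of class by group, and 5 of 11334 genes passed (0.0441%), none of them in these lists.

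**Figure D5:**
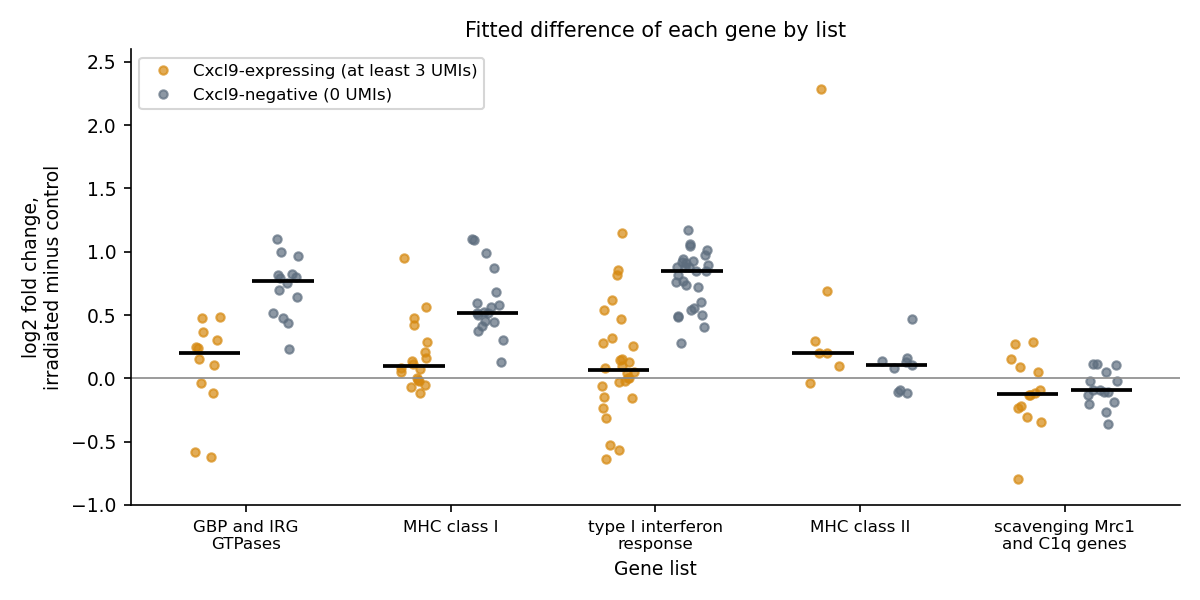
Fitted log2 difference, irradiated minus control, of each gene of 5 lists in Cxcl9-expressing macrophages (orange) and Cxcl9-negative macrophages (gray), with medians as black lines. The medians of the type I interferon list are 0.07 and 0.85, and no single gene was called in either class. The Cxcl9-expressing cells of both groups were chosen for Cxcl9, itself an interferon-induced gene.

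The 5 genes were Sparcl1, Ptprb, Col4a2, Gclc and the unnamed ENSMUSG00000121513. The members' UMIs were few, with 24, 0, 1 and 2 of Sparcl1 in irradiated and 0 in all control tumors, against 10, 3, 2 and 0 and 51, 40 and 75 in the reference. Col4a2, a collagen of basement membranes, gave 26, 1, 2 and 3 UMIs in irradiated and 4, 0 and 0 in control members. Ptprb is an endothelial gene, and the summed endothelial markers of irradiated and control members did not overlap, as was so for 6.12% of the genes tested there. These sums rest on 7, 19, 11 and 25 UMIs in irradiated and 6, 0 and 1 in control members. In the reference the groups overlapped, at 8.09, 16.4, 8.72 and 14.9 CPM in irradiated and 30.0, 8.67 and 23.2 in control tumors. The part of endothelial transcripts in these calls was not tested. Gclc, of glutathione synthesis, was the most abundant, at 15, 32, 20 and 73 UMIs in irradiated and 6, 1 and 2 in control members, and its log2 difference of differences was 2.38 ± 0.50 (adjusted p = 0.027). The count of such genes was 2 without control 2 and 32 without control 3, and 16, 17, 18, 27 and 11 without irradiated 1, 2, 3 or 4 or control 1.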

How the data were processed

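Single cells of 4 irradiated and 3 control tumors were profiled, 1 library each, with groups taken from the labels. The authors deposited UMI counts per gene and called cell, the headers of which give Cell Ranger 8.0.0, and the submitters' processing notes name mm10 and Seurat 4.4. The study's software list gives another Cell Ranger version. Libraries held 53496570 to 153044123 UMIs. The treatment of intronic reads is not given in the sources used here.

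The members, gene lists and tests were chosen with earlier results of these data known, so lists are described by counts and medians. Counts were summed per tumor and class, the tumor being the replicate. They were tested with edgeR 4.0.16 in R 4.3.3 (filterByExpr, TMM, robust quasi-likelihood) and Benjamini-Hochberg adjustment at 0.05. The SE of a log2 fold change is its absolute value over the square root of the test's F statistic, not a fitted standard error. The 14 rule genes and mt- genes were taken out before adjustment. Tumors with under 20 cells in a class were left out of the comparison of members with Cxcl9-negative macrophages, which held the tumor as a block. The same 5 tumors entered the fits at limited depth and with at least 5 Cxcl9 UMIs, where the minimum of 20 was not applied again. Limited depth left 19 and 11 members in control 1 and 2, and the minimum of 5 UMIs left 17 in control 2. Levels are UMIs per 1000000 of a tumor's class (CPM), as mean ± SD over tumors. Shares by group were compared with two-sided exact permutation tests. Wilson intervals cover counting error only.

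Named genes were the rule genes, the 10 largest increases and 10 largest decreases with a mean level of 20 CPM or more and 1 direction in every tumor, up to 5 genes per list by size of change, and 13 genes always named. Other genes were named after their values were seen. Results on a few genes are not reported here. Scrublet calls (scanpy 1.11.5) were kept. Alternatives were RLE scaling, DESeq2 1.42.0, no filter on low counts, other Cxcl9 minimums, limited depth, a filter at 3 median absolute deviations, Scrublet calls left out, the depth set or replicate number as a term, and each tumor left out. The fits were tested on simulated data. Same-numbered irradiated and control tumors did not deviate together (correlations of -0.217, -0.0263 and 0.0268 over 5146 genes), so the numbers were not taken as pairs.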

Additional observations from a re-analysis of the deposited data

Results flagged for a closer look

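Of 77 named genes with at least 50 UMIs in the Cxcl9-expressing macrophages, 7 had an irradiated tumor far from the other 3, measured as its gap to the nearest value over the range of the 4 tumors, above Dixon's critical value. Chance flags about 1 in 20 groups. The ratio was 0.837 for Arg1, where irradiated 4 had 139 CPM and the others 11.4 to 32.1, and 0.878 for Tnfsf9, where irradiated 4 had 95.7 and the others 19.9 to 29.1. Irradiated 1 stood apart for Cxcl10, at 856 against 1136 to 1192 (0.832), for Mrc1, at 597 against 477 to 484 (0.944), and for Cd79b, at 25.6 against 16.1 to 17.3 (0.872), which rests on 9 UMIs. Irradiated 2 was low for Iigp1, at 162 against 267 to 278 (0.900), and irradiated 3 for Il27, at 14.5 against 19.9 to 20.8 (0.858), on 9 UMIs.

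The difference between Cxcl9-expressing and Cxcl9-negative macrophages differed between irradiated and control tumors for 5 genes by a test of that difference (edgeR, class by group). The fitted log2 terms were 12.85 for Ptprb (adjusted p = 0.0052), 12.22 for Sparcl1 (adjusted p = 0.00080), 11.02 for ENSMUSG00000121513 (adjusted p = 0.0055), 4.61 for Col4a2 (adjusted p = 0.026) and 2.38 for Gclc (adjusted p = 0.027). Ptprb, Sparcl1 and ENSMUSG00000121513 had 0 UMIs in the members of all 3 control tumors, so their terms depend on the fit and are no bounds. Ptprb, an endothelial phosphatase, gave 1, 11, 0 and 2 UMIs in irradiated members.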

How the results depend on the processing

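No direction of the 3 differences by group changed under any alternative run. Without 1 tumor in turn, the share of macrophages differed by 2.07 to 6.57 points, the share of cells by 0.590 to 1.77 points and the Cxcl9 level by 54.4 to 148 CPM, each lowest without irradiated 4. With the replicate number as a block the share of macrophages differed by 2.07 points (exact permutation p = 0.5), the share of cells by 0.590 points and the level by 54.4, and the block made 1 call within the members (Il1r2) and 0 in the reference. The correlation with T cells was 0.237, and that with Ifng turned to 0.753, without the 2 tumors farthest on each. Calls between Cxcl9-expressing and Cxcl9-negative macrophages numbered 213 at limited depth and 109 without the tumor block, and 360 to 562 without 1 tumor in turn. Of the named genes, up to 92 per setting over 15 settings, none that passed the test between the classes changed sign, while C1qa, Cd79b and Dnajb1, which did not pass, changed sign under 1 or 2 of them. Limited depth lost 25 of the 54 calls it could test and the fit without the tumor block 33 of 55. A minimum of 5 Cxcl9 UMIs lost 7 of 55, and no filter on low counts 4 of 55. By group within the members Cxcl10, Cd274, Mrc1 and Arg1, none of them called, changed sign under at least 1 alternative. Testing every gene with 1 UMI gave 6 calls by group in the members, 22 in the reference and 21 in the class by group term. In the reference DESeq2 gave 32, leaving out Scrublet calls 15, the depth set as a term 1, and leaving out 1 tumor 0 to 73. The class by group term gave 3 with RLE scaling, 36 with tumors of at least 20 members (an alternative chosen after seeing the data, as were all 7 tumors and cells without T and NK UMIs) and 2 to 32 without 1 tumor. The causes were not tested. The members' counts were few, with 18 to 126 cells per tumor, which limits what the comparison by group can detect.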

Other observations

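Cells with Cxcl9 outside the macrophage gate are given here as values. Of the Ly6c2 monocytes, 31 of 262 in irradiated 4, 9 of 99 in irradiated 2, 4 of 41 in irradiated 3 and 1 of 9 in irradiated 1 held 3 or more Cxcl9 UMIs. In control 1 these were 5 of 81, and in control 2 and 3, with 19 and 23 monocytes, no Cxcl9 UMI was counted. Tumor cells, defined by Tafa1, Unc5c and Col11a1, held 3 or more in 3.89% of cells in irradiated 4 and in 0.151% to 0.726% in the other tumors.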
